A study of Homo sapiens with 6 samples.

Results

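The genes described here are CIITA and 9 further genes of MHC class II antigen presentation in A375SM, a human melanoma cell line selected from A375 for metastasis. They were taken by symbol, and all 10 matched among 40895 NCBI gene identifiers: CIITA, HLA-DRA, HLA-DRB1, HLA-DPA1, HLA-DPB1, HLA-DMA, HLA-DMB, CD74, RFX5 and CTSS. PolyA RNA was sequenced from 3 libraries of cells transduced with a short hairpin RNA against PRAME (shPRAME) and 3 of cells transduced with a control hairpin (shCtrl). PRAME is an antigen of testis and of many melanomas. All 6 libraries come from the same line, which the labels give as skin melanoma cells of genotype WT, and carry the same batch label. The labels give neither the hairpin sequences nor their number, and neither the selection nor the time after transduction. The labels do not say whether replicates were separate transductions or separate cultures, so the p-values reflect the scatter of these libraries alone, and that scatter may be technical.

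MHC class II molecules are pairs of an alpha and a beta chain that carry peptides from the endocytic pathway to the cell surface, where CD4 T cells read them. Professional antigen-presenting cells make them constantly, and many other cells, some melanomas among them, make them in response to interferon gamma or without it. CIITA does not bind DNA itself. It docks onto a complex of RFX, CREB and NF-Y proteins at the X and Y boxes of class II promoters and switches the genes on. The invariant chain CD74 fills the groove of new molecules, the protease cathepsin S (CTSS) trims it, and HLA-DM, made of HLA-DMA and HLA-DMB, exchanges the remaining fragment for a peptide.

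Libraries held 30842788 to 33854545 counts in shPRAME and 31525186 to 34107332 in shCtrl. A count of 0 allows a level of up to 3 counts, or 0.0880 to 0.0973 CPM in a single library, counting error only. CPM are counts divided by the library total, scaled to a common total and by TMM factors. PRAME had 1803, 1993 and 1857 counts in shPRAME, against 5623, 5356 and 5083 in shCtrl, and stood at 34.2% of the control level (log2 fold change -1.55, SE 0.0314, edgeR adjusted p = 4.85e-17). Of 8 melanoma and melanocyte markers 3 were tested: SOX10 did not pass (log2 fold change 0.05), while MITF (-0.24) and S100B (-0.94) fell. The other tested genes within 5 Mb had a median log2 fold change of -0.90 around S100B, near its own, and of 0.24 around MITF. The pigment cell genes PMEL, MLANA, TYR, DCT and TYRP1 had at most 11 counts in any library. Differences between the groups were widespread: 74.4% of 15954 tested genes passed at an adjusted p under 0.05, 37.7% higher and 36.8% lower in shPRAME.

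The promoters of the members are shown because class II genes share a promoter layout through which CIITA acts. RefSeq promoters (GRCh38.p14) were found for 7 of the 10 members, with 10 annotated starts, and not for CIITA, HLA-DRA and CTSS. The 150 bases before the gene start follow for 6 members, 5′ to 3′ on the gene's strand. Matches farther upstream (an X core in HLA-DMA and a CCAAT in HLA-DRB1) are not printed. Capitals mark CNAGNNAC, used as a core of the X box, and the Y box as ATTGG or, on the opposite strand, CCAAT.
HLA-DPB1 (chr6:33075840-33075989, plus strand): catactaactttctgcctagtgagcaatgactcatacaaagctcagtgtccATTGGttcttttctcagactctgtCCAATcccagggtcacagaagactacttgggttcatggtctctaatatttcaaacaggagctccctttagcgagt
CD74 (chr5:150412911-150413060, minus strand): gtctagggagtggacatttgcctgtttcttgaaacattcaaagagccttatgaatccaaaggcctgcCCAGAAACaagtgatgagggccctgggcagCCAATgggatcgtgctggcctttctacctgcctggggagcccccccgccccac
HLA-DPA1 (chr6:33073650-33073799, minus strand): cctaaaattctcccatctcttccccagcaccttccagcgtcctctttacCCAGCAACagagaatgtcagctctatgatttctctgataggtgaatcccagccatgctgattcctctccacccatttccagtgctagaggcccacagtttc
HLA-DMB (chr6:32941029-32941178, minus strand): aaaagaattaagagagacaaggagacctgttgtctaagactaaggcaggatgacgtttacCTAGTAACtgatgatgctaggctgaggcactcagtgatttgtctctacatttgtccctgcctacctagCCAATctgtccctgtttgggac
HLA-DMA (chr6:32953098-32953247, minus strand): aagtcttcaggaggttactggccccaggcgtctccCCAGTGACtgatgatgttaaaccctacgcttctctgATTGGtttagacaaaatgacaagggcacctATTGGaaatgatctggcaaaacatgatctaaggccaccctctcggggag
HLA-DRB1 (chr6:32589849-32589998, minus strand): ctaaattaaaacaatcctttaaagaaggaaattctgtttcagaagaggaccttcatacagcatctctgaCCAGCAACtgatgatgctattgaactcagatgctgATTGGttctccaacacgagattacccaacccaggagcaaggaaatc

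Matches were counted over the 250 bases before the start. The Y box, searched on both strands, was in 6 of the 10 member promoters and in 32.0% of all 35116 promoters. The X core CNAGNNAC, searched on the gene strand and chosen after the promoters were seen, was in 5 of the 10 and in 18.0% of all. A stricter core, CCTAGNNAC on both strands, was in 2 of the 10, those of HLA-DMB and of a start of RFX5, and in 2.60% of all. In HLA-DMA an X core preceded a Y box on the same strand by 36 bases, and in HLA-DRB1 by 35 bases. That order, with a spacing of 20 to 45 bases, was found in 0.436% of all promoters. It uses the looser core and, like that core, was not set in advance. HLA-DPB1 held the Y box without a match to CNAGNNAC. Its stretch ctagtgag, upstream of ATTGG, differs from that core only in the last base, so the missed match does not show that an X box is lacking. CD74 held both with the Y box on the opposite strand. Of the nearly silent class II chains described further on, HLA-DRB5, HLA-DQA1, HLA-DQB1 and HLA-DOA held the same X-to-Y order, at 35 or 36 bases. The stricter core contains the looser one, and X and Y matches did not overlap in the members. A match describes the reference sequence, not binding.

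**Figure D1:**
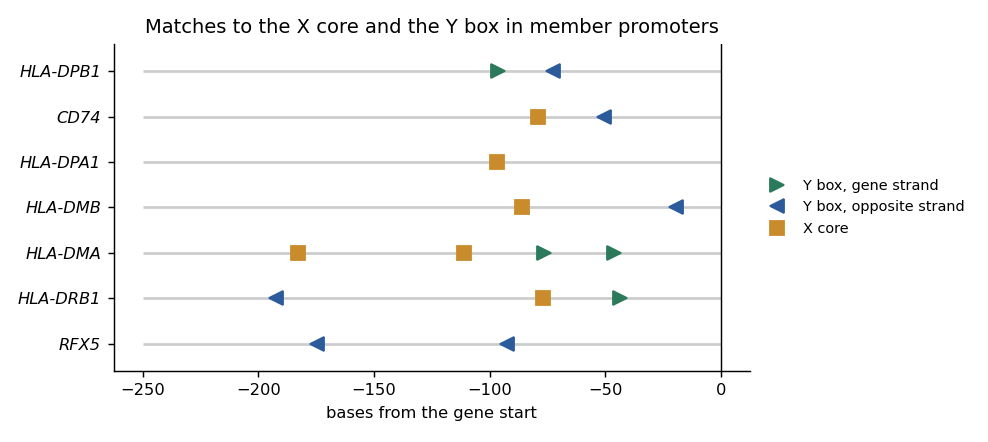
Positions of the X core (squares) and the Y box (triangles pointing along the strand of the match) in the 250 bases before the gene start of 7 members, with the start at 0 on the horizontal axis in bases. For HLA-DPA1 the start with a match is drawn, and for RFX5 1 of 3 starts; HLA-DMA and HLA-DRB1 hold the X core followed by a Y box on the gene strand.

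Of the 10 members 9 had enough reads to be tested. In shPRAME 6 of them fell, 2 rose and 1 did not pass. Among all tested genes 36.8% fell and 37.7% rose. At least 2-fold falls were seen in 4 members (CIITA, CD74, HLA-DPB1 and CTSS), as in 8.43% of tested genes, and a rise of at least 2-fold in 1 (HLA-DMA), as in 10.1% of tested genes. The median log2 fold change of the 9 members was -0.76, beside 0.0061 over all tested genes. The groups did not overlap at 7 of the 9 members and at 76.5% of tested genes, so that this count was near the background. In RNA from whole cultures, fewer cells that express a gene and less of its RNA per cell cannot be told apart.

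**Figure D2:**
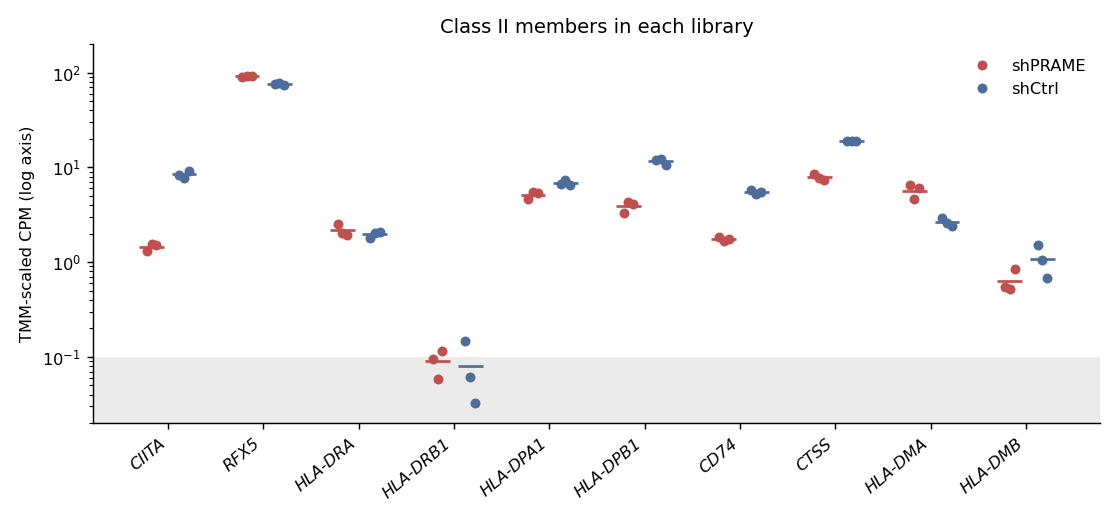
Level of each member in each library, as CPM scaled by TMM factors on a log axis, with shPRAME (red) left of shCtrl (blue); points are libraries, bars are means of 3, and the grey band lies under the level of 3 counts. CIITA, HLA-DPB1, CD74 and CTSS sit lower in every shPRAME library, HLA-DMA and RFX5 higher, and HLA-DRB1 lies at the floor in both groups.

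CIITA, the transactivator, had the largest change among the members. It lies on chromosome 16 at 10866206 to 10943021 (GRCh38; identifier 4261) and had 41, 53 and 52 counts in shPRAME, against 281, 255 and 281 in shCtrl. Its level was 1.45 ± 0.122 CPM in shPRAME and 8.41 ± 0.661 CPM in shCtrl (mean ± SD, n = 3 each), a 5.76-fold fall (log2 fold change -2.53, SE 0.120, edgeR adjusted p = 4.19e-12). The groups were far apart, with the highest shPRAME library at 1.54 CPM and the lowest shCtrl library at 7.80 CPM. Only 310 of the 15954 tested genes, 1.94%, fell further.

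CIITA overlaps the gene DEXI by 13578 bases, on the opposite strand, and no source used here says whether strand was used in counting. DEXI did not pass, at 10.7 ± 0.618 CPM in shPRAME and 11.1 ± 1.97 CPM in shCtrl (log2 fold change -0.06, edgeR adjusted p = 0.607). On the other side NUBP1, a factor of iron-sulfur cluster assembly, had 30.1 ± 1.09 CPM in shPRAME and 28.0 ± 0.295 CPM in shCtrl (log2 fold change 0.10, edgeR adjusted p = 0.0478). Over the 14 tested genes within 1 Mb of CIITA the median log2 fold change was 0.0101. Of them 5 rose, 4 fell and 5 did not pass (37.7% of all tested genes rose and 36.8% fell). Most of its neighbours did not share the fall of CIITA. LOC400499, 1 of the 14, fell further, to 0.131 ± 0.0255 CPM in shPRAME, against 0.902 ± 0.182 CPM in shCtrl; it was singled out after its values were seen.

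RFX5, the DNA-binding subunit that anchors CIITA at the X box, moved the other way by a small amount. Its gene (chromosome 1, 151340640 to 151347252) had 90.7, 91.0 and 92.0 CPM in the shPRAME libraries, against 75.6, 77.2 and 73.5 CPM in the shCtrl libraries. The groups did not overlap, and the rise was 1.21-fold (log2 fold change 0.27, SE 0.0297, edgeR adjusted p = 2.32e-07). RFX5 was by far the most abundant member in both groups.

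The 4 chains of the classical molecules HLA-DR and HLA-DP differed in what they did. HLA-DRA, the alpha chain of HLA-DR (chromosome 6, 32439887 to 32445046), had 79, 70 and 67 counts in shPRAME, against 60, 66 and 64 in shCtrl. The groups overlapped once scaled to depth, at 2.17 ± 0.317 CPM in shPRAME and 1.96 ± 0.160 CPM in shCtrl. The log2 fold change was 0.14, with a 95% interval of -0.18 to 0.47 (edgeR adjusted p = 0.409), so that the interval holds both small falls and small rises. HLA-DRB1, which encodes its beta partner (chromosome 6, 32578775 to 32589848), had 3, 2 and 4 counts in shPRAME, against 5, 2 and 1 in shCtrl. It lay at or near the floor in every library and was not tested. HLA-DRB genes closely resemble one another, so that the split of reads between them is uncertain. HLA-DRB5 itself had 1 to 5 counts per shPRAME library and 1 to 2 per shCtrl library.

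HLA-DPB1, the beta chain of HLA-DP (chromosome 6, 33075990 to 33089696), had 3.30, 4.29 and 4.08 CPM in the shPRAME libraries, against 11.9, 12.3 and 10.7 CPM in the shCtrl libraries. It fell 2.97-fold, with no overlap of the groups (log2 fold change -1.57, SE 0.104, edgeR adjusted p = 3.58e-10). HLA-DPA1, its alpha partner (chromosome 6, 33064569 to 33080748), had 4.61, 5.48 and 5.39 CPM in the shPRAME libraries, against 6.69, 7.31 and 6.58 CPM in the shCtrl libraries. Its fall was 1.33-fold, smaller than that of the beta chain (log2 fold change -0.41, SE 0.101, edgeR adjusted p = 0.0015). The ratio of HLA-DPA1 to HLA-DPB1 was 1.40, 1.28 and 1.32 in the shPRAME libraries, against 0.562, 0.596 and 0.617 in the shCtrl libraries. It was higher in all 3 shPRAME libraries (2-sided exact permutation p = 0.1, the smallest that 3 against 3 allows, and 0.1 after Benjamini-Hochberg adjustment over 5 ratios). The 2 genes lie on opposite strands and share 4759 bases, so that without strand the reads of that stretch cannot be assigned. The 4 classical chains together had 11.3 ± 0.693 CPM in shPRAME and 20.5 ± 1.15 CPM in shCtrl.

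The chains of HLA-DQ and HLA-DO were nearly silent in both groups. Of the 9 listed further class II chains 7 were found (HLA-DRB3 and HLA-DRB4 were not analysed here), and none had enough reads to be tested. Together they made up 0.192 to 0.348 CPM in the shPRAME libraries and 0.227 to 0.296 CPM in the shCtrl libraries. HLA-DOB, the beta chain of the HLA-DM inhibitor HLA-DO, had 1, 1 and 0 counts in shPRAME, against 3, 3 and 5 in shCtrl.

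CD74, the invariant chain (chromosome 5, 150401639 to 150412910), had 57, 58 and 60 counts in shPRAME, against 194, 171 and 169 in shCtrl. Its level was 1.75 ± 0.0716 CPM in shPRAME and 5.48 ± 0.254 CPM in shCtrl. The fall was 3.14-fold, next in size to that of CIITA among the members (log2 fold change -1.65, SE 0.122, edgeR adjusted p = 1.62e-09). Genes around CD74 were mostly lower too, with 15 of 23 tested genes within 1 Mb falling (36.8% of all tested genes), 2 rising (37.7%) and a median log2 fold change of -0.43. Of these 23 genes 3 fell further than CD74. Of its nearest tested neighbours, TCOF1, a nucleolar protein of ribosomal RNA synthesis, did not pass (log2 fold change 0.05) and RPS14, a ribosomal protein, fell (log2 fold change -0.32). Tested against the median of its neighbourhood within 5 Mb, CD74 was still lower (log2 fold change -1.31, edgeR adjusted p = 4.25e-08).

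The ratio of HLA-DRA to CD74 was 1.39, 1.21 and 1.12 in the shPRAME libraries, against 0.309, 0.386 and 0.379 in the shCtrl libraries (exact permutation p = 0.1, the smallest possible, and 0.1 adjusted over 5 ratios). Relative to CIITA, CD74 and HLA-DPB1 were both higher in shPRAME. CD74 over CIITA was 1.21 ± 0.157 in shPRAME and 0.654 ± 0.0467 in shCtrl, and HLA-DPB1 over CIITA was 2.67 ± 0.144 in shPRAME and 1.39 ± 0.204 in shCtrl (exact permutation p = 0.1 for each, adjusted over 5 ratios also 0.1). Both genes thus fell by a smaller factor than CIITA in these libraries.

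CTSS (chromosome 1, 150730188 to 150765778) had 8.48, 7.77 and 7.42 CPM in the shPRAME libraries, against 19.0, 18.8 and 19.0 CPM in the shCtrl libraries. It fell 2.40-fold, with no overlap of the groups (log2 fold change -1.26, SE 0.0678, edgeR adjusted p = 2.08e-11). Its neighbour CTSK, which encodes the related protease cathepsin K, also fell, to 40.6 ± 0.901 CPM in shPRAME, against 74.6 ± 3.23 CPM in shCtrl (log2 fold change -0.88, edgeR adjusted p = 1.04e-12). On its other side GOLPH3L, a Golgi protein, rose slightly (log2 fold change 0.13, edgeR adjusted p = 0.0371). None of the 56 tested genes within 1 Mb fell further than CTSS.

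The 2 chains of HLA-DM moved apart. HLA-DMA (chromosome 6, 32948618 to 32953097) had 201, 159 and 208 counts in shPRAME, against 98, 85 and 75 in shCtrl. It rose 2.14-fold, to 5.69 ± 0.956 CPM in shPRAME, against 2.64 ± 0.237 CPM in shCtrl (log2 fold change 1.10, SE 0.137, edgeR adjusted p = 1.36e-06). HLA-DMB (chromosome 6, 32934636 to 32941028) had 17, 18 and 29 counts in shPRAME, against 51, 34 and 21 in shCtrl.

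HLA-DMB was called lower (log2 fold change -0.76, SE 0.294, edgeR adjusted p = 0.0273), but shPRAME replicate 3, at 0.840 CPM, lay above shCtrl replicate 3, at 0.681 CPM. The call was lost with DESeq2 (adjusted p = 0.0631), with the replicate number as a block (adjusted p = 0.0531) and without shCtrl replicate 1 (adjusted p = 0.212), shPRAME replicate 1 (adjusted p = 0.0893) or shPRAME replicate 2 (adjusted p = 0.102). The log2 fold change was -0.44 without shCtrl replicate 1. HLA-DMA over HLA-DMB was 7.17 to 11.8 in the shPRAME libraries, against 1.92 to 3.57 in the shCtrl libraries. The ratio did not overlap between the groups (exact permutation p = 0.1, the smallest possible, and 0.1 adjusted over 5 ratios).

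Levels of different genes were compared per kilobase of the median GENCODE transcript of each gene. In shPRAME the order was RFX5 (156 CPM per kilobase), CTSS (11.1), HLA-DMA (6.53), HLA-DPA1 (5.62), HLA-DPB1 (4.94), CD74 (2.21), HLA-DRA (1.77), CIITA (1.12), HLA-DMB (0.404) and HLA-DRB1 (0.0732). There HLA-DMA, HLA-DPA1 and HLA-DPB1 overlapped with their neighbour in the order. In shCtrl it was RFX5 (129 CPM per kilobase), CTSS (26.6), HLA-DPB1 (14.7), HLA-DPA1 (7.47), CD74 (6.93), CIITA (6.47), HLA-DMA (3.04), HLA-DRA (1.60), HLA-DMB (0.685) and HLA-DRB1 (0.0655). There CD74 overlapped with HLA-DPA1 and with CIITA. By group means and these lengths, HLA-DMA stood above HLA-DPB1 and CD74 in the shPRAME order and below both in the shCtrl order. This order of the means held with the longest transcript. HLA-DMA and HLA-DPB1 overlapped in shPRAME, with HLA-DMA below HLA-DPB1 in replicate 2 by either length. The rest of the order depends on the length used. With the longest transcript, HLA-DMA (1.52 CPM per kilobase) lay above HLA-DPA1 (1.37) and CIITA (0.524) in shCtrl.

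**Figure D3:**
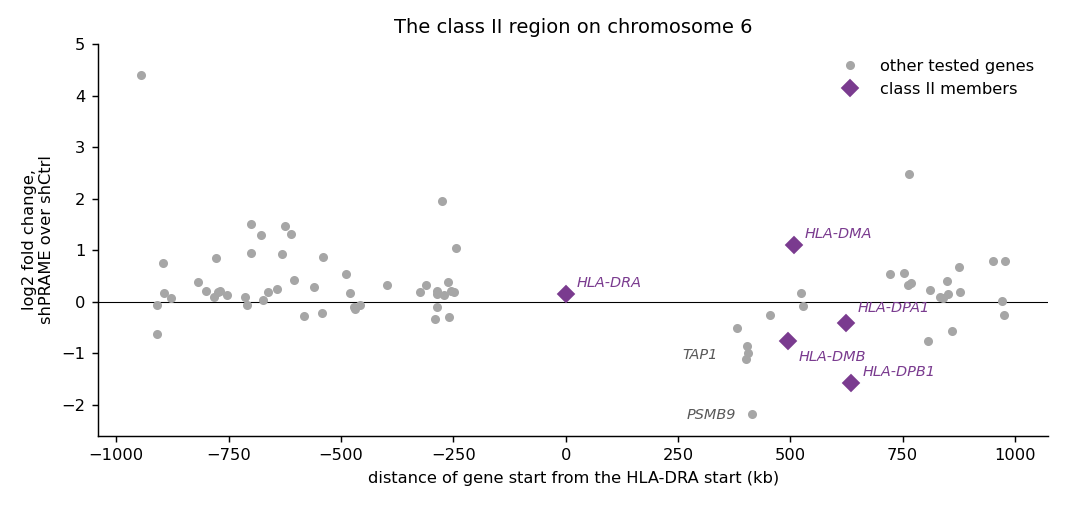
Log2 fold change of shPRAME over shCtrl for each tested gene within 1 Mb of the HLA-DRA start on chromosome 6, against the distance of its start in kilobases; diamonds are class II members and grey points other genes. HLA-DPB1, HLA-DMB and HLA-DPA1 lie below 0 and HLA-DMA above it, and PSMB9 and TAP1 between HLA-DRA and HLA-DMB lie below 0.

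The wider window around HLA-DRA, which reaches beyond the class II genes on both sides, was not lower by its median. Within 1 Mb of HLA-DRA 41 of 78 tested genes rose (37.7% of all tested genes), 16 fell (36.8%) and the median log2 fold change was 0.18. From HLA-DRA to HLA-DPB1, a stretch chosen after its values were seen, most tested genes were lower. There HLA-DMA rose, and HLA-DRA and LOC124901302 did not pass. All tested genes between HLA-DRA and HLA-DMB were lower, and of these PSMB9, PSMB8 and TAP1 were singled out after their values were seen. PSMB9, an immunoproteasome subunit, had 1.14 ± 0.133 CPM in shPRAME and 5.20 ± 0.613 CPM in shCtrl (log2 fold change -2.18). The immunoproteasome gene PSMB8 (log2 fold change -1.11) and the peptide transporter gene TAP2 (-0.51) were also lower. TAP1, its transporter partner, had 8.84 ± 0.430 CPM in shPRAME and 17.7 ± 1.24 CPM in shCtrl. The adjusted p of these 4 genes was 1.31e-07 or smaller (edgeR). BRD2, a chromatin reader between the HLA-DM and HLA-DP genes, changed little (log2 fold change -0.08, edgeR adjusted p = 0.0173), and COL11A2, a collagen gene beyond HLA-DPB1, rose (log2 fold change 0.53, edgeR adjusted p = 2.20e-05). Of the genes nearest to HLA-DRA on each side, NOTCH4, a signalling receptor, rose (log2 fold change 1.05) and TAP2 fell.

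Of the other proteins at class II promoters and regulators of CIITA, 12 of 13 listed genes were tested, and 9 fell and 3 rose (36.8% and 37.7% of all tested genes), with a median log2 fold change of -0.31. IRF1, which drives the interferon-responsive CIITA promoter, fell most, to 4.23 ± 0.262 CPM in shPRAME, against 13.7 ± 1.19 CPM in shCtrl (log2 fold change -1.70, SE 0.0918, edgeR adjusted p = 2.31e-11). Its partner on that promoter, IRF2, fell to 15.1 ± 0.661 CPM in shPRAME, against 24.9 ± 1.38 CPM in shCtrl (log2 fold change -0.72). PRDM1, a repressor of CIITA in plasma cells, fell to 5.12 ± 0.292 CPM in shPRAME, against 9.59 ± 0.687 CPM in shCtrl (log2 fold change -0.91).

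The RFX and NF-Y subunits changed little. RFXAP (log2 fold change -0.29), RFXANK (-0.23) and NFYC (-0.40) fell, whereas NFYA (0.20) and NFYB (0.18) rose. CREB1, which binds next to RFX, rose (0.32), and USF1, another factor of the CIITA promoter, fell (-0.14). NLRC5, the relative of CIITA that acts on class I genes, fell to 8.07 ± 0.339 CPM in shPRAME, against 10.2 ± 0.455 CPM in shCtrl (log2 fold change -0.33). These 8 genes had edgeR adjusted p of 0.0241 or smaller. SOCS1, an inhibitor of interferon signalling, was too low to be tested, with 3, 4 and 2 counts in shPRAME, against 8, 17 and 11 in shCtrl.

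Interferon gamma itself (IFNG) had no count in any library, which allows up to 3 counts per library. Of the 4 tested genes of its receptor, 3 fell (36.8% of all tested genes fell) and JAK2 did not pass (log2 fold change -0.0033, edgeR adjusted p = 0.978). The receptor chains IFNGR1 (log2 fold change -0.19) and IFNGR2 (-0.51) and the kinase JAK1 (-0.71) fell, with edgeR adjusted p of 0.00484 or smaller. Tested against its neighbourhood within 5 Mb, IFNGR2 turned to a rise (log2 fold change 0.31, edgeR adjusted p = 2.75e-08). NFYA (adjusted p = 0.305), NFYC (adjusted p = 0.722), RFXAP (adjusted p = 0.391) and IFNGR1 (adjusted p = 0.972) no longer passed in that test, while CIITA (log2 fold change -2.63) and IRF1 (-1.29) were lower there too. JAK2 passed as lower in that test (log2 fold change -0.42, edgeR adjusted p = 0.00135).

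**Figure D4:**
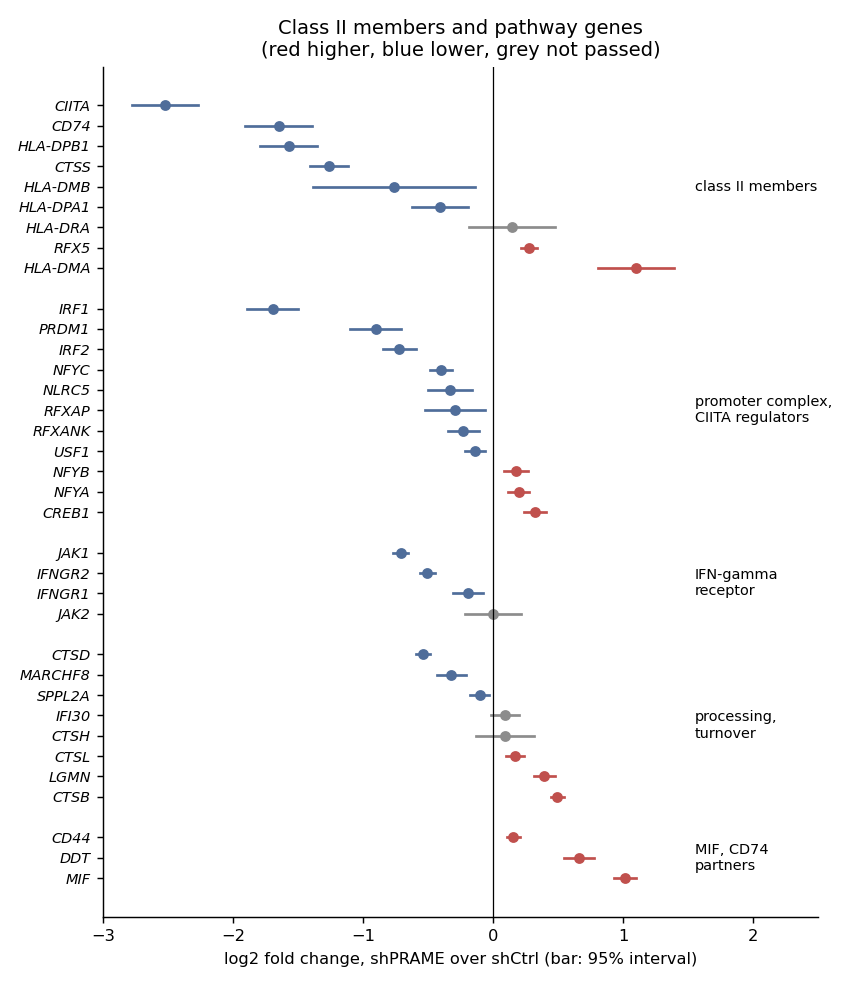
Log2 fold change of shPRAME over shCtrl with its 95% interval for the 9 tested members and for the tested genes reported here of the 4 other lists, each in order of the change; red passed as higher, blue as lower, and grey did not pass. CIITA at -2.53 and IRF1 at -1.70 lie lowest, and HLA-DMA at 1.10 and MIF at 1.01 highest.

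Among proteases and enzymes of class II processing 3 of 8 tested genes rose, 3 fell and 2 did not pass, near the shares over all tested genes (37.7% higher, 36.8% lower). The lysosomal proteases CTSB (log2 fold change 0.49), CTSL (0.17) and LGMN (0.39) rose, and CTSD (-0.54), SPPL2A, which cleaves the membrane stub of CD74 (-0.10), and MARCHF8, a ubiquitin ligase that removes class II from the surface (-0.32), fell. CTSB, the most abundant, had 413.2 ± 6.37 CPM in shPRAME and 293.6 ± 6.75 CPM in shCtrl. CTSH (0.09, adjusted p = 0.441) and IFI30, the lysosomal thiol reductase (0.09, adjusted p = 0.125), did not pass. SPPL2A turned to a rise when set against its neighbourhood (log2 fold change 0.12, edgeR adjusted p = 0.00474). In that test CTSL (adjusted p = 0.0604) and MARCHF8 (adjusted p = 0.952) no longer passed, and IFI30 passed as higher (adjusted p = 0.0359).

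CD74 is also a surface receptor for the cytokine MIF. All 3 tested genes of that list rose, as did 37.7% of all tested genes. MIF reached 81.5 ± 1.68 CPM in shPRAME, against 40.4 ± 2.49 CPM in shCtrl (log2 fold change 1.01, SE 0.0400, edgeR adjusted p = 3.42e-13). DDT, which encodes the related cytokine, had 690, 809 and 806 counts in shPRAME, against 491, 483 and 444 in shCtrl (log2 fold change 0.66), and CD44, the co-receptor of CD74, 897.0 ± 6.83 CPM in shPRAME, against 805.8 ± 15.1 CPM in shCtrl (log2 fold change 0.15). CXCR2 and CXCR4 had at most 2 counts in any library.

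Over all pathway genes outside the members, 27 of 39 found genes were tested, and 9 rose and 15 fell, with a median log2 fold change of -0.14. Over all tested genes 37.7% rose and 36.8% fell. Set against the median of the genes around each, 10 were higher and 9 lower.

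Markers of B cells, dendritic cells, macrophages and T cells were read in the same libraries. The B cell gene MS4A1 and the dendritic cell genes FLT3, CD1C and CLEC9A had no count in any library. The 5 B cell markers summed to 0.0580 to 0.160 CPM in shPRAME and 0.0592 to 0.162 CPM in shCtrl, and the 4 T cell markers to at most 0.145 CPM in any library. The 5 dendritic cell markers summed to 4.20 to 5.06 CPM in shPRAME and 6.81 to 8.28 CPM in shCtrl, nearly all of it CD83, which fell (log2 fold change -0.63, edgeR adjusted p = 6.59e-05). The 7 macrophage markers summed to 73.3 to 75.0 CPM in shPRAME and 44.9 to 47.3 CPM in shCtrl, mostly CD68, which many cell types express. Of the 4 tested, CD68, LYZ and PTPRC rose and ITGAX fell. PTPRC, the pan-leukocyte gene, had 36, 29 and 27 counts in shPRAME and none in shCtrl, while the monocyte gene CD14 had 5 to 8 counts in shPRAME and 5 to 10 in shCtrl. The part of these genes in the class II levels was not tested.

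The 5 genes whose levels over the 6 libraries lay closest to those of CIITA, by the distance between mean-centred log2 CPM values, were SLC37A2 (distance 0.204), DEPP1 (0.205), DEPDC7 (0.213), ICAM1 (0.258) and GREB1 (0.274). They were drawn from protein-coding genes with a mean of at least 1 CPM. ICAM1, an adhesion molecule bound by leukocyte integrins, had 14.9 ± 0.282 CPM in shPRAME and 90.7 ± 0.228 CPM in shCtrl. SLC37A2, a sugar-phosphate transporter, had 2.28 ± 0.0605 CPM in shPRAME and 13.2 ± 0.253 CPM in shCtrl. With 6 libraries in 2 groups, likeness here is mostly a fall of about the same size, between -2.44 and -2.68 on the log2 scale for these 5 genes.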

How the data were processed

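PolyA RNA of A375SM cells was sequenced as read pairs of 150 bases in 3 shPRAME and 3 shCtrl libraries, per the labels' protocols. The deposited files hold raw whole-number counts per NCBI gene identifier, with no normalization (per the file headers; the values are whole). GRCh38 and hg38 are the builds, and Salmon, STAR and fastp the tools, that appear in the submitters' processing notes; their roles, versions, annotation and strand setting are not stated there. Each file had 40929 rows, of which 34 repeated an identifier and were added together. Symbols and coordinates came from RefSeq (GRCh38.p14; 40789 identifiers matched, 106 did not), promoters from RefSeq and transcript lengths from GENCODE.

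Counts were filtered (filterByExpr), scaled by TMM and tested with edgeR 4.0.16 in R 4.3.3 (quasi-likelihood, 2-sided, group as the only term). P-values were adjusted by Benjamini-Hochberg across the 15954 genes kept, with a threshold of 0.05. The standard error is the log2 fold change over the root of F. On simulated counts (15954 genes, 15705 after filtering) 25 of 50 genes with a 1.2-fold change were recovered. At 1.5-fold it was 39 of 50, at 2-fold 38 of 50 and at 4-fold 50 of 50, and 16 unchanged genes were called. In the data 74.4% of tested genes passed, far more than were changed in the simulation, so these recoveries need not hold for the data. Replicates within a group differed beyond sampling noise (2.44 to 8.14 chi-square units per gene, where noise alone gives about 1). Each was counted once, but separate library preparations of the same culture could also differ so, and independence of the replicates was not shown. Members and gene lists were chosen with earlier results of these data known. Listed genes that passed are named, except for results not reported here, with the nearest tested neighbours of members within 1 Mb and the 5 genes most like CIITA; LOC400499, PSMB9, PSMB8 and TAP1 were added after their values were seen. Alternatives were RLE factors, library totals, other filters, DESeq2 1.42.0, limma-voom 3.58.1, a replicate block, leaving out each library, and a test against the median change of genes within 5 Mb.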

Additional observations from a re-analysis of the deposited data

How the results depend on the processing

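CIITA stayed lower under every alternative run, with log2 fold changes of -2.63 to -2.46, and of -2.58 to -2.46 when each library was left out. PRAME ranged from -1.56 to -1.51 when each library was left out. Of the members, 2 were called higher under every alternative and 5 to 6 lower, HLA-DMB being the call that was lost. HLA-DRA, not called, turned to a log2 fold change of -0.041 (adjusted p = 0.824) against its neighbourhood. In that test 9 of the other pathway genes were lower, beside 15 as reported; leaving out each library gave 9 higher and 13 to 15 lower. Over all genes, leaving out each library gave 5757 to 5858 higher and 5513 to 5724 lower. Library totals without TMM gave 6609 higher and 5311 lower, beside 6008 and 5867 as reported. Same-numbered libraries did not deviate together (correlations of -0.0589, -0.119 and -0.0999). The replicate block gave CIITA a log2 fold change of -2.53, and it changed no member's call but that of HLA-DMB; over all genes it called 5868 higher and 5735 lower. On the gene strand only, the Y box was in 3 of the 10 member promoters and in 18.5% of all, and the X core in 18.0% in its looser form, chosen after the promoters were seen. Depth limits HLA-DRB1 and the HLA-DQ and HLA-DO chains, and the overlap of HLA-DPA1 with HLA-DPB1 and HLA allele differences limit their counts.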
